A study of Rattus norvegicus with 18 samples.

Results

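miR-139 is a miRNA with a 5p and a 3p arm, rno-miR-139-5p and rno-miR-139-3p in the rat, and both were measured in gastrocnemius muscle across age and caloric restriction (CR). Its members were taken by name from the deposited counts, which gave 2 of 909 entries, of which 763 were known miRNAs and 146 were candidates predicted from the reads. miR-139 was selected on its measured level, which was higher in old CR muscle than in both AL groups, so its differences between old CR and the AL groups are given as a description, with no p. Its levels and the ratio of its arms were tested between old and young rats on unrestricted food. The selection did not compare these groups with each other, but it used their levels, since both lay below old CR.

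Small RNA was sequenced from 18 male Brown Norway rats, 6 in each of 3 groups. Young AL rats were 6 months old and fed ad libitum (AL), old AL rats were 28 months old and fed ad libitum, and old CR rats were 28 months old and received 55% of the intake of AL rats, a restriction begun at 2 months of age. The labels name no other treatment, all rats were housed singly from the start of the diets, and each library came from 1 animal. Young rats under CR were not part of these samples, so an effect of CR could be read only at 28 months.

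miRNAs are short RNAs cut from a hairpin precursor, and the arm that is loaded into an Argonaute protein lowers the stability and translation of transcripts that pair with its seed, bases 2 to 8. The miR-139 hairpin is transcribed from within Pde2a, the gene of the cyclic nucleotide phosphodiesterase 2A, and its 5p arm is the one usually retained. Transcripts reported elsewhere as targets of miR-139-5p include the IGF-1 receptor Igf1r, the kinase Rock2 and the receptor Notch1, and the miRNA is known to be abundant in brain. None of these transcripts was measured here.

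The mature arms are shown because they define the counted molecules, with the seed in capitals, 5′ to 3′, as RefSeq gives them.
rno-miR-139-5p: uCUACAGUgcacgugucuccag
rno-miR-139-3p: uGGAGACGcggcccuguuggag
Both arms were 22 bases long, with a GC content of 54.5% for 5p and 68.2% for 3p. Their seeds differed, so the arms pair with different sites. Among the 693 mature rat miRNAs of the RefSeq table, none besides the arm itself carried CUACAGU or GGAGACG in bases 2 to 8, and 686 of the 763 known names in the count table were found in it. The remaining known names and the predicted candidates were not searched.

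The hairpin places both arms in 1 precursor, with the mature arms in capitals.
Mir139 hairpin: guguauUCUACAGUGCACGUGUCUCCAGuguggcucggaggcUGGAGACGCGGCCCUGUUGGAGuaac
In RefSeq's GRCr8 assembly it lies at chr1:165290859-165290926 on the plus strand, with the 5p arm at chr1:165290865-165290886 and the 3p arm at chr1:165290901-165290922. It lies wholly inside the span of Pde2a on the same strand, and no other annotated miRNA gene was within 100 kb. The arms were separated by 14 bases. The longest uninterrupted run over which they were complementary was 7 bases, positions 15 to 21 of 5p, in capitals here.
rno-miR-139-5p: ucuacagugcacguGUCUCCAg
rno-miR-139-3p: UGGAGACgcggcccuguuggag
The capitals of the 3p line cover most of its seed, which is thus complementary to bases close to the 3′ end of 5p.

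Counts summed over all entries were 34940346 to 83110905 in the 18 libraries, sums in which a read under more than 1 entry is counted again. Trimmed mean of M-values (TMM) scaling, which sets libraries level over most miRNAs, gave factors of 0.656 to 2.08, with both extremes in old AL (replicate 11 lowest, replicate 7 highest). Levels are CPM, the count of an entry relative to the scaled total of its library, after this scaling unless library totals are named. The labelled tissue was checked with 7 striated muscle miRNAs, which took 8.97% to 15.3% of the counts in every library, and 0 of the 7 were called in any comparison by edgeR or DESeq2, with 0 at an unadjusted p under 0.05. In bulk muscle, fewer cells of a type and less RNA per cell cannot be told apart. The second number in the sample descriptions ran in a separate range for each group, and no batch was given. A batch that followed the groups and the groups themselves therefore cannot be told apart. The first number matched the replicate number except in young AL replicates 1 and 2, where it lay above those of all other libraries.

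rno-miR-139-5p, the abundant arm, was higher in every old CR library than in any AL library, and its levels in old AL and young AL overlapped. In young AL it was at 76.6, 59.0, 83.6, 75.7, 85.8 and 125 CPM in replicates 1 to 6. Old AL replicates 7 to 12 gave 89.5, 96.4, 112, 99.0, 67.6 and 74.0 CPM. Old CR replicates 13 to 18 gave 130, 156, 147, 173, 156 and 181 CPM. The AL library nearest to the lowest old CR library, replicate 13, was young AL replicate 6. The mean ± SD over 6 libraries was 84.3 ± 22.2 CPM for young AL, 89.8 ± 16.5 CPM for old AL and 157 ± 18.3 CPM for old CR. In the order of these levels young AL and old AL, the lower neighbours, did not differ beyond their spread.

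**Figure D1:**
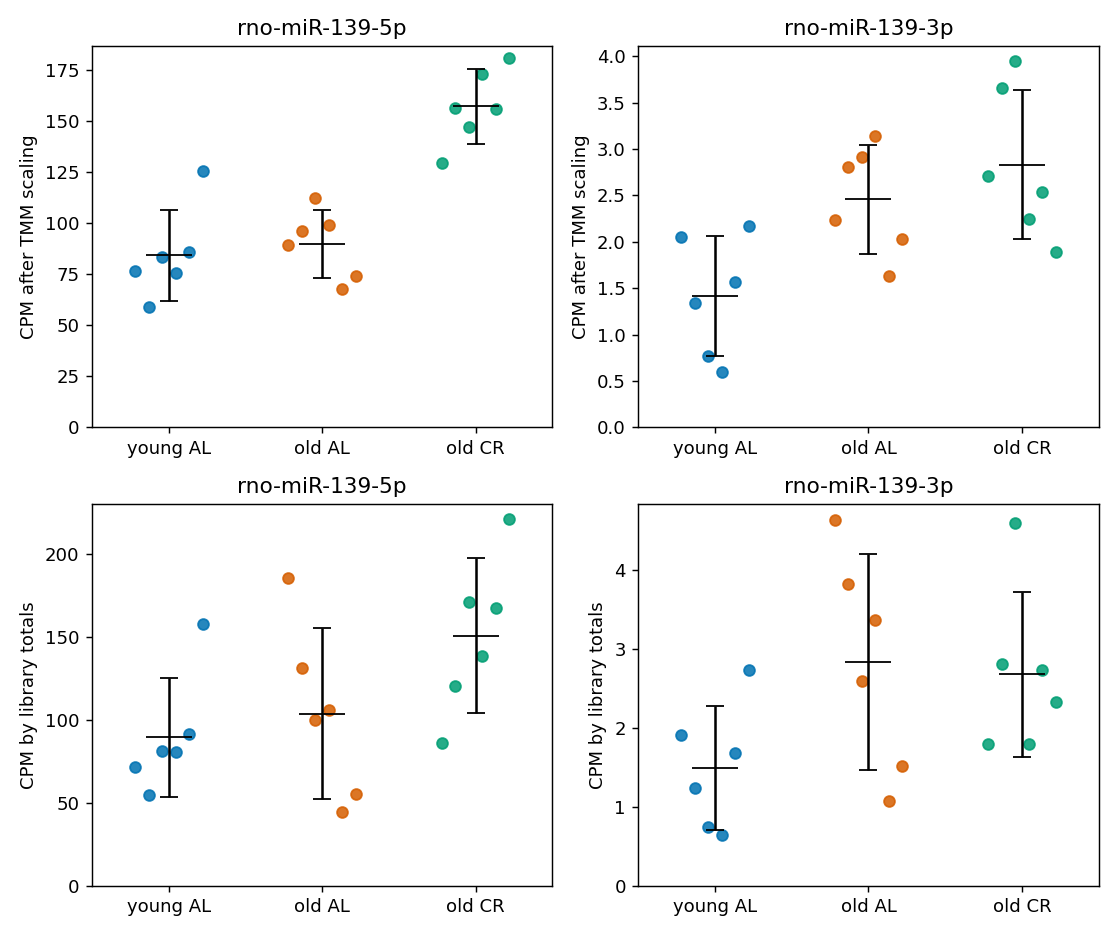
Levels of rno-miR-139-5p (left) and rno-miR-139-3p (right) in CPM after TMM scaling (top) and in CPM by library totals (bottom). Points are libraries, 6 in each group, and bars are the mean ± SD. After TMM scaling the old CR libraries lay at 130 to 181 CPM of 5p, above all AL libraries, whereas by library totals the groups overlapped for both arms.

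Among the 763 known miRNAs of each library, with rank 1 the most abundant, the rank of 5p was 74 to 92 for young AL, 79 to 92 for old AL and 62 to 76 for old CR. These ranks, which do not depend on the scaling, overlapped between young AL and old CR at ranks 74 to 76 and did not overlap between old AL and old CR. Averaged over all libraries, 5p stood at place 79 with 110 CPM, next to rno-miR-24-2-5p at 110 CPM and rno-miR-328a-3p at 106 CPM. The counts behind these values were 2832 to 15257 per library, which leaves a counting error of 0.810% to 1.88%, far below the spread within any group. Counting errors here are Poisson and do not cover amplification, since reads carried no molecular identifiers.

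With age alone, the level of 5p did not differ detectably. In old AL against young AL the log2 fold change was 0.09 ± 0.192 (SE), with a 95% interval of -0.29 to 0.46 and an adjusted p of 0.873 (edgeR quasi-likelihood test, Benjamini-Hochberg over all entries). The interval holds values on both sides of 0. Of the 732 entries tested in this comparison, 3.28% were called in either direction, a call being a 1.5-fold or larger change with an adjusted p up to 0.05, and neither arm was among them.

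Against young AL, 5p in old CR was 1.85-fold higher, a log2 fold change of 0.89 ± 0.167. The groups did not overlap, every old CR library being above every young AL library, which was so for 2.47% of the 730 entries tested. By library totals alone 5p did not pass the threshold for a call here. Over all entries, 4.11% were called higher. Since this contrast took part in the choice of miR-139, nothing is read from its place among them.

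Against old AL, 5p in old CR was 1.76-fold higher, a log2 fold change of 0.81 ± 0.143, again with all 6 old CR libraries above all 6 old AL libraries. Of 736 entries, 0.408% showed that separation, namely rno-miR-139-5p, a near-duplicate candidate entry described in the next paragraph and rno-miR-99a-5p, which is named here after its values were seen. Over all entries, 0.272% were called higher, which was 2 of 736 entries with 5p among them, and 0 were called without the near-duplicate. This contrast too was part of the choice, so that a call of 5p is no support for it. As a limit of that choice, 5p passed the threshold in the fit to all 12 libraries but not without the near-duplicate, and not when any 1 of old AL replicates 7, 8, 10, 11 and 12 or old CR replicates 14, 16, 17 and 18 was left out. Nor did it pass with upper-quartile factors, by library totals with or without the miR-1 family, without robust estimation or without predicted candidates. The log2 fold change stayed between 0.73 and 0.89 in the fits without 1 library.

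The near-duplicate, the predicted candidate numbered 12, held 97.5% to 98.7% of the counts of 5p in every library, with a median of 98.2%. Its level was 82.8 ± 21.7 CPM for young AL, 88.0 ± 16.3 CPM for old AL and 155 ± 18.2 CPM for old CR (mean ± SD, n = 6 each). Its log2 fold changes were 0.08, 0.89 and 0.82 in old AL against young AL, old CR against young AL and old CR against old AL. With counts this close in every library, both entries are taken as 1 measurement of the 5p arm.

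Scaling by library totals kept the order of the group means of 5p and widened the groups until they overlapped. On that scale the mean ± SD was 89.6 ± 35.8 CPM for young AL, 104 ± 51.8 CPM for old AL and 151 ± 46.9 CPM for old CR. Only 3 of 6 old CR libraries exceeded the highest young AL library, and 1 of 6 exceeded the highest old AL library. Old AL replicate 7, with 186 CPM by library totals and 89.5 CPM after TMM scaling, had the highest AL value by totals. Relative to rno-miR-101a-3p, the reference miRNA of the study's RT-qPCR, the mean log2 ratio of 5p was -2.79 ± 0.664 for young AL, -2.77 ± 0.582 for old AL and -2.02 ± 0.707 for old CR. The difference between old CR and old AL was 0.75 on that scale, and the SDs were of similar size. The level of rno-miR-101a-3p itself had a log2 fold change of 0.14 ± 0.297 in old CR against old AL.

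**Figure D2:**
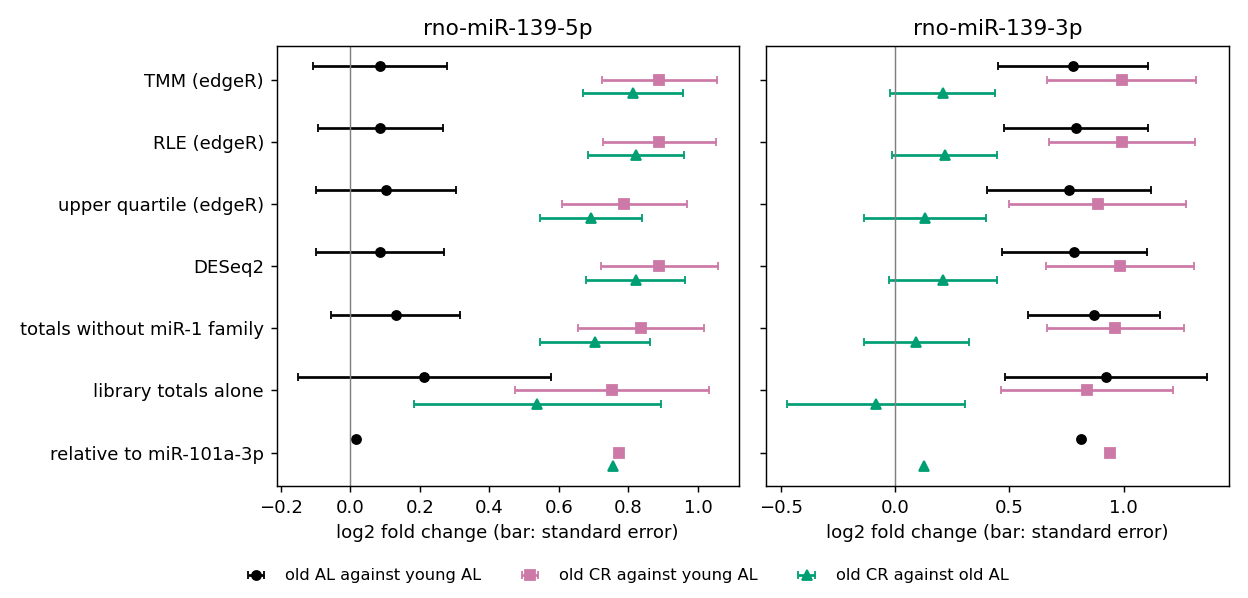
log2 fold changes of both arms (horizontal axis) in the 3 comparisons under 7 ways of scaling or fitting (vertical axis). Bars are standard errors, and none is drawn relative to miR-101a-3p, where the value is a difference of group means. For 5p both old CR comparisons stayed above 0.5 and old AL against young AL stayed near 0, whereas for 3p old CR against old AL lay near 0 and was -0.08 by library totals alone.

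rno-miR-139-3p, the scarce arm, had the same order of group means as the abundant arm after TMM scaling, from young AL up to old CR. The spacing differed, with the means of both old groups close together and young AL below them. In young AL rno-miR-139-3p was at 2.05, 1.34, 0.77, 0.60, 1.57 and 2.17 CPM in replicates 1 to 6. Old AL replicates 7 to 12 gave 2.23, 2.81, 2.91, 3.14, 1.63 and 2.03 CPM. Old CR replicates 13 to 18 gave 2.71, 3.66, 3.94, 2.24, 2.54 and 1.89 CPM. All 3 groups overlapped, with young AL replicates 3 and 4 below every other library. The mean ± SD over 6 libraries was 1.42 ± 0.645 CPM for young AL, 2.46 ± 0.586 CPM for old AL and 2.83 ± 0.805 CPM for old CR.

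The 3p arm rested on 26 to 234 counts per library, with 26 in each of young AL replicates 3 and 4, and its counting error was 6.54% to 19.6%. It ranked 214 to 356 among the known miRNAs, and its overall mean of 2.24 CPM lay between rno-miR-362-5p at 2.25 CPM and rno-miR-674-5p at 2.21 CPM. Values of this arm are therefore less precise than those of 5p.

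In old AL against young AL the log2 fold change of 3p was 0.78 ± 0.330, with a 95% interval of 0.13 to 1.43, and 4 of 6 old AL libraries exceeded the highest young AL library. The adjusted p was 0.187 (edgeR), so 3p was not called, and it was called under none of the other settings tried. Without young AL replicates 3 and 4, left out after their values were seen, the log2 fold change was 0.44 ± 0.241 with an adjusted p of 0.340 (edgeR).

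Old CR exceeded young AL in 3p by a log2 fold change of 0.99 ± 0.325, or 1.99-fold, with 5 of 6 libraries above the highest young AL library. It did not pass the threshold for a call, and among the settings tried it did so only with DESeq2, in one fit over the 3 groups and without predicted candidates. Between old CR and old AL the log2 fold change of 3p was 0.21 ± 0.230, and 2 of 6 old CR libraries lay above all old AL libraries. Leaving out 1 library moved this value from 0.087, without old CR replicate 15, to 0.30, without old CR replicate 18. Side by side, the log2 fold change of old CR against old AL was 0.81 for 5p and 0.21 for 3p, both from the same libraries.

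Because both arms come from 1 hairpin, the ratio of 5p to 3p counts in a library, with 0.5 added to each count, compares them free of any scaling between libraries. It was 37.2, 43.6, 107, 124, 54.4 and 57.7 in young AL replicates 1 to 6. Old AL replicates 7 to 12 gave 40.0, 34.3, 38.4, 31.4, 41.2 and 36.3. Old CR replicates 13 to 18 gave 47.6, 42.6, 37.2, 77.0, 61.1 and 95.1. The old AL libraries formed a narrow band, whereas young AL ranged from that band to 124 and old CR to 95.1. On the log2 scale the ratio was 6.00 ± 0.700 for young AL, 5.20 ± 0.147 for old AL and 5.83 ± 0.523 for old CR (mean ± SD, n = 6 each).

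Old AL had the lower ratio, with a log2 difference from young AL of -0.79 (two-sided exact permutation test over all arrangements of the libraries, p = 0.0108, n = 6 each). The ratio of 5 of 6 young AL libraries exceeded that of every old AL library. Young AL replicates 3 and 4 had the highest ratios and also the lowest summed counts of the series, 34940346 and 40785602, whose part in the ratio was not tested. Without both, a choice made after their values were seen, the log2 difference was -0.37 (exact permutation test, p = 0.0476, n = 4 and 6). The spread also differed between the groups, and this test does not separate a shift in the mean from a change in spread. Old CR differed from old AL by 0.63 with 5 of 6 libraries above all old AL libraries, and from young AL by -0.17, both as descriptions.

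**Figure D3:**
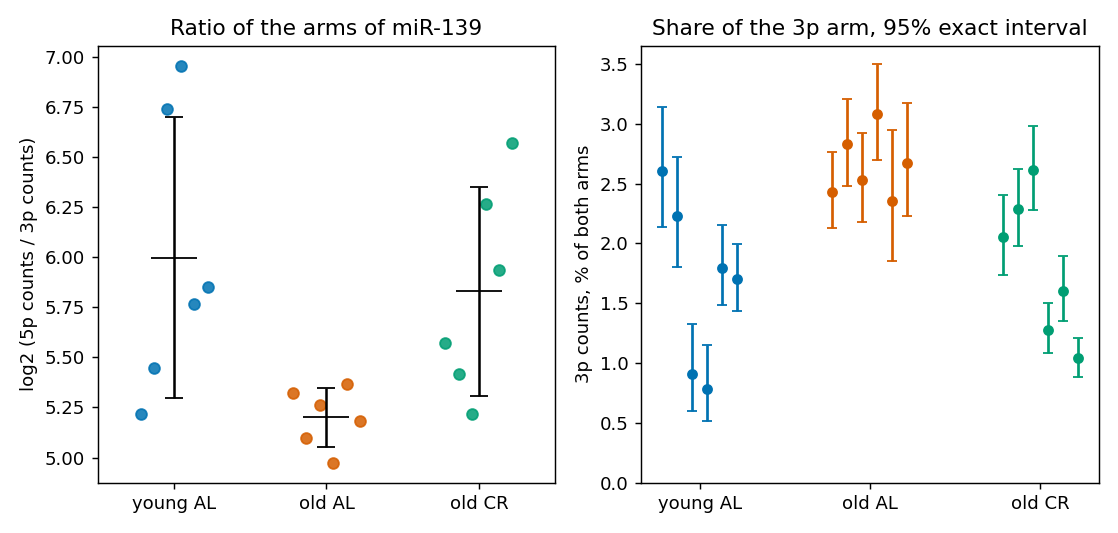
log2 ratio of 5p to 3p counts (left, bars are the mean ± SD of 6 libraries) and the 3p arm as a percentage of the counts of both arms (right, bars are exact 95% binomial intervals of counting error). Old AL libraries lay between 2.35% and 3.08% of 3p, while the other groups reached down to 0.785% and 1.04%.

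As a share of both arms, 3p made up 1.67% ± 0.716 for young AL, 2.65% ± 0.271 for old AL and 1.81% ± 0.609 for old CR. The lowest share, 0.785% in young AL replicate 4, had an exact (Clopper-Pearson) 95% interval of 0.514% to 1.15%. The highest, 3.08% in old AL replicate 10, had an interval of 2.69% to 3.50%.

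Within groups, the correlation of the arms passed the test in old AL. There r was 0.93 (exact permutation test, p = 0.00417, adjusted p = 0.025 over 6 values) and rho was 0.94 (exact permutation test, p = 0.0167, adjusted p = 0.05), on log2 CPM over 6 libraries. Without the 2 libraries farthest from the median of 5p, r was 0.66. In young AL r was 0.37 (exact permutation test, p = 0.489, adjusted p = 0.489) and rho was 0.60 (exact permutation test, p = 0.242, adjusted p = 0.307), with r at 0.14 without the 2 farthest. In old CR r was -0.56 (exact permutation test, p = 0.256, adjusted p = 0.307) and rho was -0.71 (exact permutation test, p = 0.136, adjusted p = 0.272), with r at -0.83 without the 2 farthest. The difference between groups in these correlations was not tested. Both arms of a library share its scaling factor.

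**Figure D4:**
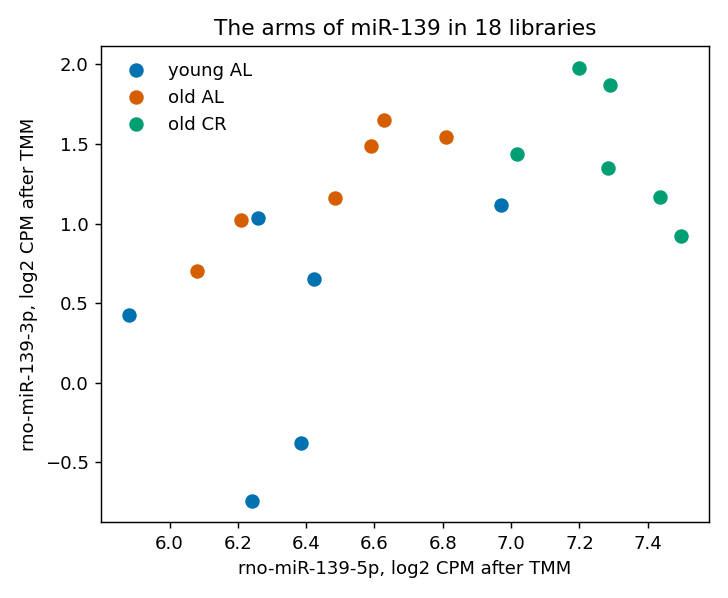
Level of rno-miR-139-3p against rno-miR-139-5p, both as log2 CPM after TMM scaling, with 1 point for each of the 18 libraries, coloured by group. Old AL libraries lay along a rising line (r = 0.93), while old CR libraries lay to the right with the highest 5p level, in replicate 18, beside the lowest 3p level of the group.

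The miRNAs whose pattern over the 18 libraries was most like that of 5p were found by the Pearson correlation of log2 CPM among 333 known miRNAs with at least 10 counts in every library. They were rno-miR-129-5p (r = 0.68), rno-miR-330-3p (0.65), rno-miR-3549 (0.65), rno-miR-452-5p (0.63) and rno-miR-224-5p (0.62). The median of all 333 was 0.02, the 3p arm reached 0.55, and Spearman's rho gave 3 of the same 5. All 5 miRNAs had their highest group mean in old CR, as follows from likeness to a miRNA chosen for that. rno-miR-129-5p, known from neurons, had group means of 0.610 ± 0.210, 1.09 ± 0.554 and 3.80 ± 2.97 CPM (young AL, old AL, old CR). rno-miR-224-5p was the most abundant of the 5, with 5.76 ± 1.21 CPM for young AL and 10.2 ± 2.28 CPM for old CR. These correlations are descriptions over libraries that share scaling and groups.

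With the group means subtracted, a different set was nearest to 5p, rno-let-7i-3p (r = 0.74), rno-miR-193b-3p (0.72), rno-miR-122-5p (0.67), rno-miR-151-3p (0.64) and rno-miR-122b (0.64), and the 3p arm stood at 0.34. Nearest to 3p over the 18 libraries were rno-miR-106b-3p (r = 0.82), rno-miR-92a-3p (0.81) and rno-miR-191a-5p (0.80). None of the miRNAs nearest to 3p was among those nearest to 5p. rno-miR-92a-3p, of the miR-17-92 cluster, had group means of 83.4 ± 26.9, 141 ± 35.4 and 111 ± 35.2 CPM in the same order of groups.

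miR-139-5p is one of several miRNAs reported to act on transcripts of IGF-1 and insulin signalling, a pathway whose activity falls under CR, and a list of 18 others was set beside it. None of the 18, which include the let-7 and miR-29 families, miR-1-3p and miR-133a-3p, was called by edgeR in any comparison, with 2, 1 and 1 at an unadjusted p under 0.05 in old AL against young AL, old CR against young AL and old CR against old AL. Over all entries, 171 of 732, 186 of 730 and 88 of 736 had such a p. DESeq2 called 1, 1 and 0 of the 18, in both cases rno-miR-29b-3p, beside 84, 109 and 19 of all entries. Their median log2 fold change was 0.16 in old AL against young AL, 0.20 in old CR against young AL and 0.06 in old CR against old AL, beside medians over all entries of 0.06, 0.08 and 0.01. In old AL against young AL and in old CR against young AL 16 of 18 had a value above 0. In old CR against old AL 10 of 18 did. Of all entries, 414 of 732, 407 of 730 and 373 of 736 were above 0 in the 3 comparisons. In old CR against old AL rno-let-7c-5p had a log2 fold change of 0.28 ± 0.111 (adjusted p = 0.392, edgeR). There rno-miR-1-3p, the most abundant of the 18, had 0.48 ± 0.302 (adjusted p = 0.530, edgeR).

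Neural miRNAs, listed because miR-139 is abundant in brain and with earlier results of these data known, had their highest summed level in old CR. Of 9 listed, 5 were called higher in old CR against young AL (adjusted p of 0.00312 to 0.0173, edgeR), beside 4.11% of all entries, where the log2 fold changes were 2.27 for rno-miR-9a-5p, 2.74 for rno-miR-124-3p, 2.61 for rno-miR-129-5p, 3.30 for rno-miR-346 and 0.99 for rno-miR-598-3p. In old AL against young AL 1 of 9 was called, rno-miR-598-3p at 1.21 (adjusted p = 0.0353, edgeR), beside 3.28% of all entries. There 7 of 9 had values above 0, against 414 of 732 entries, and the median log2 fold change was 0.81. An unadjusted p under 0.05 was held by 5 of 9 against 171 of 732 entries, and DESeq2 called 3 of 9 against 84 entries. In old CR against old AL 0 of 9 were called by edgeR. Their median log2 fold change was 1.32, and 7 of 9 had values above 0, against 373 of 736 entries. Below 0 were rno-miR-219a-5p at -0.52 ± 0.729 and rno-miR-598-3p at -0.20 ± 0.237. An unadjusted p under 0.05 was held by 6 of 9 against 88 of 736 entries. DESeq2 called 2, rno-miR-9a-5p and rno-miR-129-5p, against 19 entries. The summed level of the 9 was 10.2 to 24.3 CPM for young AL, 17.7 to 38.8 CPM for old AL and 24.9 to 171 CPM for old CR. This sum was mainly rno-miR-9a-5p, at 59.1 ± 48.4 CPM in old CR, where no other listed miRNA had a mean above 3.80 CPM. rno-miR-137-3p, rno-miR-153-3p and rno-miR-219a-5p were at 0 in some libraries, and the others were above 0 in all 18.

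In old CR replicates 13 to 18 the summed neural level was 31.7, 61.9, 24.9, 46.7, 171 and 100.2 CPM. Replicates 13 and 15 therefore lay within the old AL range of neural miRNAs. Their levels of 5p, 130 and 147 CPM, lay above the highest old AL level of 5p, 112 CPM, as did those of every other old CR library. miR-139 was chosen for that pattern, so nothing is read from it here. Replicates 13 and 15 were also the lowest of old CR in 5p. Replicate 18, second to replicate 17 in neural level, had the highest level of 5p, 181 CPM, and replicate 17 had 156 CPM. The part of neural RNA in the level of miR-139 was not tested.

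Markers of other cells were also listed. The 2 endothelial, 4 smooth muscle, 5 leukocyte and 3 erythroid miRNAs had 0 calls in all 3 comparisons by edgeR. At an unadjusted p under 0.05 there were 2 leukocyte and 1 erythroid miRNAs in old AL against young AL and 1 erythroid miRNA in old CR against old AL, where 171 of 732 and 88 of 736 of all entries had such a p, and DESeq2 called rno-miR-144-5p, erythroid, in old AL against young AL. Their median log2 fold changes were -0.25, 0.03, 1.16 and 0.25 in old AL against young AL and 0.05, -0.06, -0.51 and -0.50 in old CR against old AL. All 5 leukocyte miRNAs had values above 0 in the former and below 0 in the latter. All 3 erythroid miRNAs were below 0 in the latter as well. Of all entries, 414 of 732 and 373 of 736 were above 0 in these comparisons. The median summed leukocyte level was 157 CPM for young AL, 140 CPM for old AL and 141 CPM for old CR. In old AL the sum ranged from 109 to 606 CPM, and rno-miR-142-5p was at 31.9 ± 52.6 CPM. The liver miRNA rno-miR-122-5p had a log2 fold change of 4.36 ± 1.16 in old AL against young AL (adjusted p = 0.0710, edgeR), where DESeq2 called it. It was called in old CR against young AL at 3.53 and had -0.81 ± 0.556 in old CR against old AL. Its group means were 12.6 ± 15.1 CPM (young AL), 255 ± 265 CPM (old AL) and 146 ± 30.3 CPM (old CR). Its part in the levels of miR-139 was not tested.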

How the data were processed

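The authors trimmed adapters with Cutadapt (1.2.1 in the submitters' processing notes, which also name Bowtie2 2.4.0 and the build Rnor_6.0) and low-quality ends with Sickle, found known miRNAs and predicted candidates with miRDeep2, and deposited raw counts of whole reads per miRNA for each library, without normalization. Not given in the sources used here are the miRBase release and how reads matching more than 1 entry were counted. All columns matched a sample, and 0 were left unused.

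Each pair of groups was fitted on its own with edgeR 4.0.16 (R 4.3.3) after TMM scaling, by the robust quasi-likelihood test, for entries with at least 10 counts in total, with Benjamini-Hochberg adjustment over all of them. A call needed a 1.5-fold or larger change with an adjusted p up to 0.05. An SE is the log2 fold change divided by the square root of F, and 95% intervals are ±1.96 SE. CPM shown per library use 1 TMM scaling of all 18 libraries. Log2 values of single libraries, and the ratio of the arms, had 0.5 counts added. Ratios and correlations of the arms were tested by two-sided exact permutation (scipy 1.17.1). DESeq2 1.42.0, other scalings, filters, left-out entries and left-out libraries were alternatives.

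Sequences and positions come from RefSeq (GRCr8), which is not the build of the counts. miRNAs were named by a rule: the arms, their near-duplicate, seed relatives, genes within 100 kb, neighbours in level, the nearest patterns (5 to 5p, 5 with group means subtracted, 3 to 3p) and called or most abundant list members. The members and lists were chosen with earlier results of these data known. The study multiplexed the libraries over 2 sequencing lanes, and the labels do not assign libraries to lanes. The p-values weigh a difference between groups against the spread between the rats sampled.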

Additional observations from a re-analysis of the deposited data

How the results depend on the processing

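No paired analysis was possible because the replicate numbers run from 1 to 18 without being shared between groups. The log2 fold change of rno-miR-139-5p in old AL against young AL was -0.0068 to 0.24 in the fits without 1 library, lowest without old AL replicate 9, and -0.042 without young AL replicates 1 and 2 together. By library totals alone, 5p in old CR against old AL was 0.54 and 3p was -0.083, a setting that moved the median of all entries to -0.27 there (-0.10 with upper-quartile factors) and to 0.23 in old AL against young AL. The log2 arm ratio in old CR against young AL was -0.32 to 0.025 without 1 library, above 0 without young AL replicate 4 only, and in old AL against young AL it was -0.95 to -0.60. The causes were not tested. Calls in old AL against young AL numbered 24, but 84 with DESeq2, 37 with filterByExpr, 38 with one fit over the 3 groups, 53 without predicted candidates and 0 by library totals (edgeR, 116 at an unadjusted p under 0.05). In old CR against young AL there were 68, and 109 with DESeq2. In old CR against old AL there were 2, but 19 with DESeq2 and, by edgeR, 0 with upper-quartile factors, library totals or no candidates (83, 60 and 68 at an unadjusted p under 0.05). With 26 to 234 counts per library, counting error was larger for 3p than for 5p.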
